A study of Mus musculus with 7 samples.

Results

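The genes described here are 54 genes of mitosis and the G2/M phase of the cell cycle, taken from the 49315 gene identifiers of the count tables by their mouse gene symbols. They cover the kinases and cyclins of mitotic entry, the spindle, the kinetochore, the checkpoint and cytokinesis, and all 54 were found. RNA-seq had been carried out on primary mouse oligodendroglia, that is, oligodendrocyte precursor cells (OPCs) and the oligodendrocytes that form from them in culture. The control group held 4 libraries from wildtype pups (Klf13-wt) and the knockout group 3 libraries from pups without the transcription factor KLF13 (Klf13-ko). All 7 cultures came from brains of newborn mice of both sexes, were shaken off mixed glial cultures, were depleted of microglia, and were kept for 6 days in SATO medium with thyroid hormone, which makes OPCs differentiate. KLF13 was constitutively absent from every cell type of the knockout mice, so other cells in these cultures lacked it as well. The labels call the libraries biological replicates, and nothing says whether cultures shared a litter.

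Genes of mitosis are switched on late in the cell cycle. Their transcription is held down in resting cells by the DREAM complex, which binds a short promoter element called the cell cycle genes homology region (CHR), and it is raised in cycling cells by the MYBL2-containing MuvB complex and by FOXM1, often together with CCAAT boxes bound by NF-Y. OPCs divide, and they leave the cell cycle when they differentiate, so these genes mark the dividing share of an oligodendroglial culture. In bulk RNA, fewer dividing OPCs, fewer dividing cells of other types and less of these RNAs per cell cannot be told apart.

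Every one of the 54 genes had its lower values in the Klf13 knockout (median log2 fold change -0.78), and in no case did a knockout library reach the lowest control library. By edgeR's quasi-likelihood test, 53 of the 54 genes were lower at an adjusted p of 0.05, whereas 12.2% of all 18352 tested genes were called lower, and none of the 54 was called higher against 11.6% of all genes. The exception was Pttg1. With markers of fibroblasts and mural cells as a covariate, as described below, 23 genes were called lower and all 54 log2 fold changes stayed negative. That fit also called fewer of all tested genes. Groups without overlap and with the knockout lower were found for 54 of 54 genes, against 18.0% of all tested genes. At a log2 fold change of -1 or below, only Top2a was called, 1 of 54 against 3.08% of all tested genes. A log2 fold change between -1 and -0.5 was found for 47 of them and one above -0.5 for 6, namely Pttg1, Bub3, Ccnb2, Smc4, Ncapd2 and Cdc25b. The quartiles were -0.86 and -0.70, and a value of -0.78 or below was reached by 7.19% of all tested genes, whose median was -0.00. Knockout means ranged from 49.4% to 85.9% of the control mean, with a median of 58.4%. All 54 genes had passed the filter on low counts, and the lowest count of any of them in any library was 71.

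**Figure D1:**
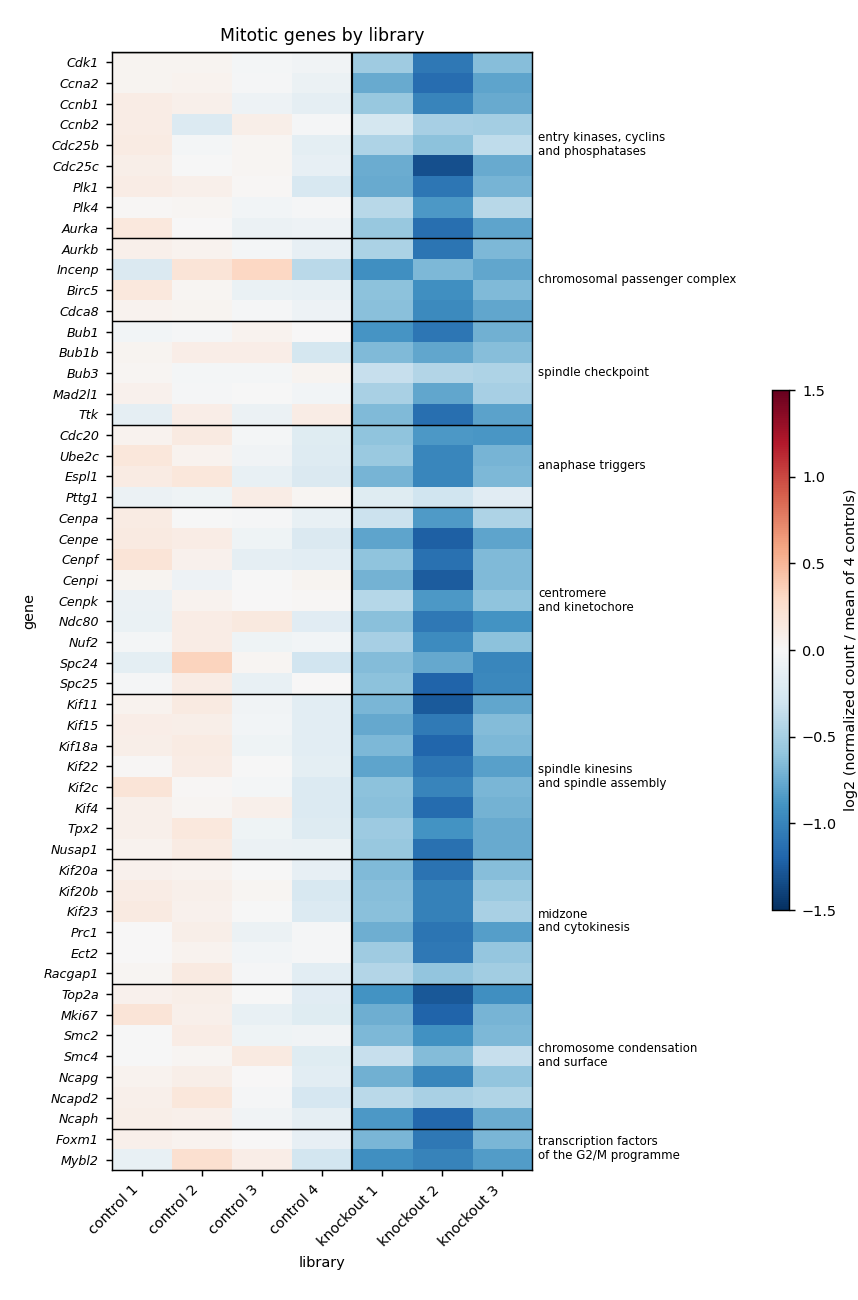
Normalized count of each of the 54 genes (rows, grouped by role) in each of the 7 libraries (columns) as log2 of its ratio to the mean of the 4 control libraries, blue for lower and red for higher. The 3 knockout columns are blue in every row, and knockout replicate 2 is the lowest of the 7 libraries in 49 rows.

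The labels could be checked on Klf13 itself, which had normalized counts of 10915, 11769, 11999.5 and 10669.9 in control replicates 1 to 4, compared with 802, 876 and 961 in knockout replicates 1 to 3. Its log2 fold change was -3.69 (SE 0.09, adjusted p = 6.77e-06). Libraries held between 24507471 and 59596479 counts on genes. None of the 4 lineage markers Sox10, Olig1, Olig2 and Nkx2-2 was called, and 1 of 6 OPC markers (Ptprz1) was higher, whereas 7 of 7 markers of mature oligodendrocytes were lower with a median log2 fold change of -2.33.

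Promoters of the mitotic genes were searched for the letters of the CHR (TTTGAA) and the CCAAT box (CCAAT) on both strands, in RefSeq windows of 300 bases that run from 250 before to 50 after a start site. Windows were at hand for 45 of the 54 genes, all but Incenp, Spc24, Foxm1, Tpx2, Ccna2, Aurkb, Smc4, Cdc25c and Kif20a. The CHR letters stood in the windows of 30 of the 45 genes (66.7%), compared with 20.2% of all 27025 genes with a window and 14.4% of the 12286 tested genes with one. For the CCAAT letters, the shares were 71.1%, 41.1% and 42.5%, and both lay in the same window for 57.8%, 7.97% and 5.88%. A CHR match that began no more than 50 bases before the start site, or after it, was found for 27 of the 45 genes (60.0%), against 5.72% of all genes with a window. As examples, the 80 bases just before the start site are printed 5′ to 3′ for 8 genes, namely those with a CHR match wholly inside them among the genes whose values are given below for every library, with the CHR and CCAAT letters of either strand in capitals (TTCAAA and ATTGG are the same letters read on the other strand).
Cdk1: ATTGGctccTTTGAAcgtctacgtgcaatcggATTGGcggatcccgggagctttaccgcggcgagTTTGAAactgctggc
Bub3: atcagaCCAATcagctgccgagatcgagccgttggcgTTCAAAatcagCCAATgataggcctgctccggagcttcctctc
Cdc20: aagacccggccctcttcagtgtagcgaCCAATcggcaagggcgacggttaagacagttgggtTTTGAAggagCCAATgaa
Ube2c: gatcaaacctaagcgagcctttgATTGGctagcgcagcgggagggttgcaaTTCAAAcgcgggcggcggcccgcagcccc
Espl1: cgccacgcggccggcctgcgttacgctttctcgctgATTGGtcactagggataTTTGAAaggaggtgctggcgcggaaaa
Kif11: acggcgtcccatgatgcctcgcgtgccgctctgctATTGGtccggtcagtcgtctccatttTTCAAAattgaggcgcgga
Prc1: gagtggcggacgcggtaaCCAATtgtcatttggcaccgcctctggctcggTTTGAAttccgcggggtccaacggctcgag
Top2a: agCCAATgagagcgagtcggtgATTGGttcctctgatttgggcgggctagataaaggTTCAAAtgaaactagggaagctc
These sequences are from the RefSeq annotation of build GRCm38.p6. They lie at chr10:69352913-69352992 on the minus strand for Cdk1, chr7:131560290-131560369 on the plus strand for Bub3, chr4:118437344-118437423 on the minus strand for Cdc20, and chr2:164769849-164769928 on the plus strand for Ube2c. The others lie at chr15:102296213-102296292 on the plus strand for Espl1, chr19:37376302-37376381 on the plus strand for Kif11, chr7:80294396-80294475 on the plus strand for Prc1 and chr11:99024190-99024269 on the minus strand for Top2a. Bub3 and Prc1 also had a window at another start site, from which the same CHR match began at -167 for Bub3 and at -5 for Prc1. The arrangement varied among the genes, as Kif15 had a CHR match at -19 and no CCAAT match, and Plk1, Aurka and Spc25 had their CHR match after the start site.

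**Figure D2:**
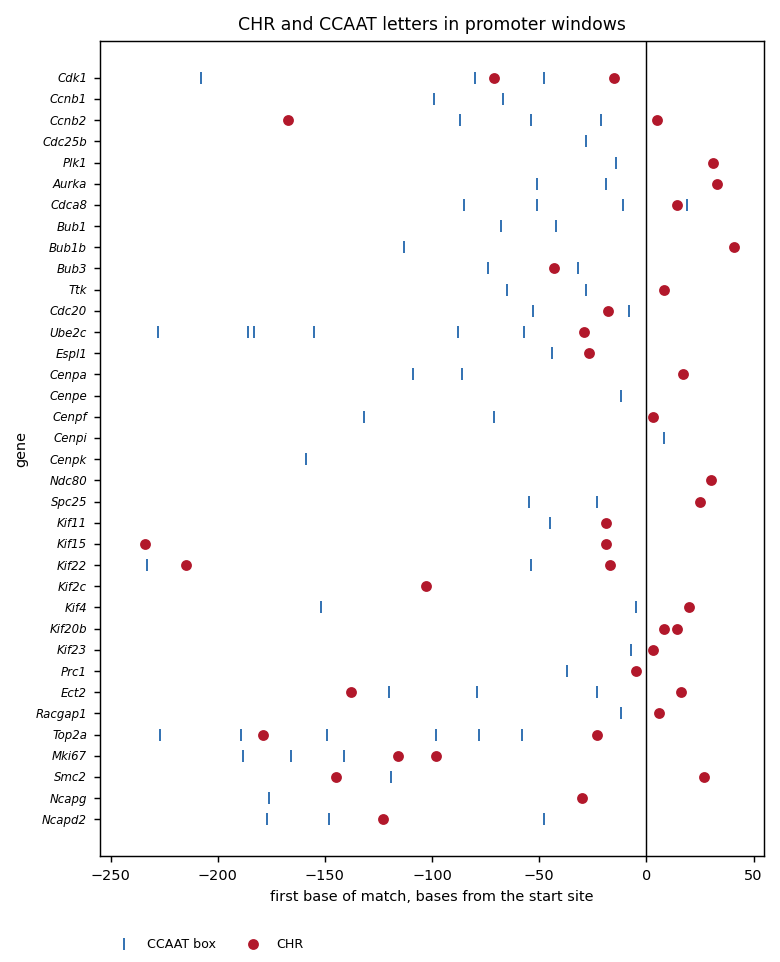
First base of each CHR match (red circles) and CCAAT match (blue bars) relative to the RefSeq start site (black line at 0), in bases, for the 36 genes with a match; for a gene with several windows the one of lowest coordinate is drawn. CHR matches gather around the start site and most CCAAT matches lie before it.

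Genes with and without the CHR letters had log2 fold changes in similar ranges. The median log2 fold change was -0.78 for the 30 genes with a match, within a range from -1.02 to -0.42, and -0.76 for the 15 genes with a window but no match, within a range from -0.92 to -0.22. The related letters TTTAAA were present in 22.2% of the 45 genes and 14.9% of all genes. Letters that Klf proteins are described to bind in this study (ACGCCC or ACACCC or ACTCCC or CCGCCC or CCACCC or CCTCCC, counted as 1 class) were found for 95.6% of the 45 genes, 78.1% of all genes and 92.1% of the tested genes. GGCGGG, whose reverse complement CCCGCC shares letters with that class, was found for 77.8%, 37.9% and 64.5%. A match is a description of the letters, not of binding.

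In the group of entry kinases, cyclins and phosphatases, all 9 genes fell, with a median log2 fold change of -0.76. Cdk1, the kinase that drives cells into mitosis, had normalized counts of 1681, 1682, 1601 and 1573 in control replicates 1 to 4, compared with 1127, 776 and 1053 in knockout replicates 1 to 3. It fell by 0.73 on the log2 scale (SE 0.13, adjusted p = 0.00726). This call was lost with a covariate for fibroblast and mural cell markers (log2 fold change -0.68, adjusted p = 0.0923). The control libraries lay within a narrow band, and among the knockout libraries replicate 2 was the lowest. Ccna2, the cyclin of S phase and early mitosis, was at 2517, 2543, 2424 and 2294 in the controls against 1448, 1106 and 1413 in the knockouts. Its fall of 0.89 (SE 0.10, adjusted p = 0.00166) was larger than that of most genes of the group, again with knockout replicate 2 lowest. Ccnb1, the cyclin that partners Cdk1 in mitosis, was at 2795, 2731, 2458 and 2357 in the controls against 1746, 1298 and 1531 in the knockouts, a fall of 0.76 (SE 0.11, adjusted p = 0.00440). Its groups were far apart, with knockout replicate 1 the highest of its group and still well below every control. Among the other genes, the polo kinase Plk1 (-0.84), the spindle pole kinase Aurka (-0.82) and the Cdk1-activating phosphatase Cdc25c (-0.91) had log2 fold changes below the median of the group, while the centriole kinase Plk4 (-0.55), the phosphatase Cdc25b (-0.48) and the cyclin Ccnb2 (-0.42) moved less. The call on Ccnb2 (adjusted p = 0.0339) rested on the full set of libraries and was lost without control replicate 1, 3 or 4 or any knockout replicate.

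**Figure D3:**
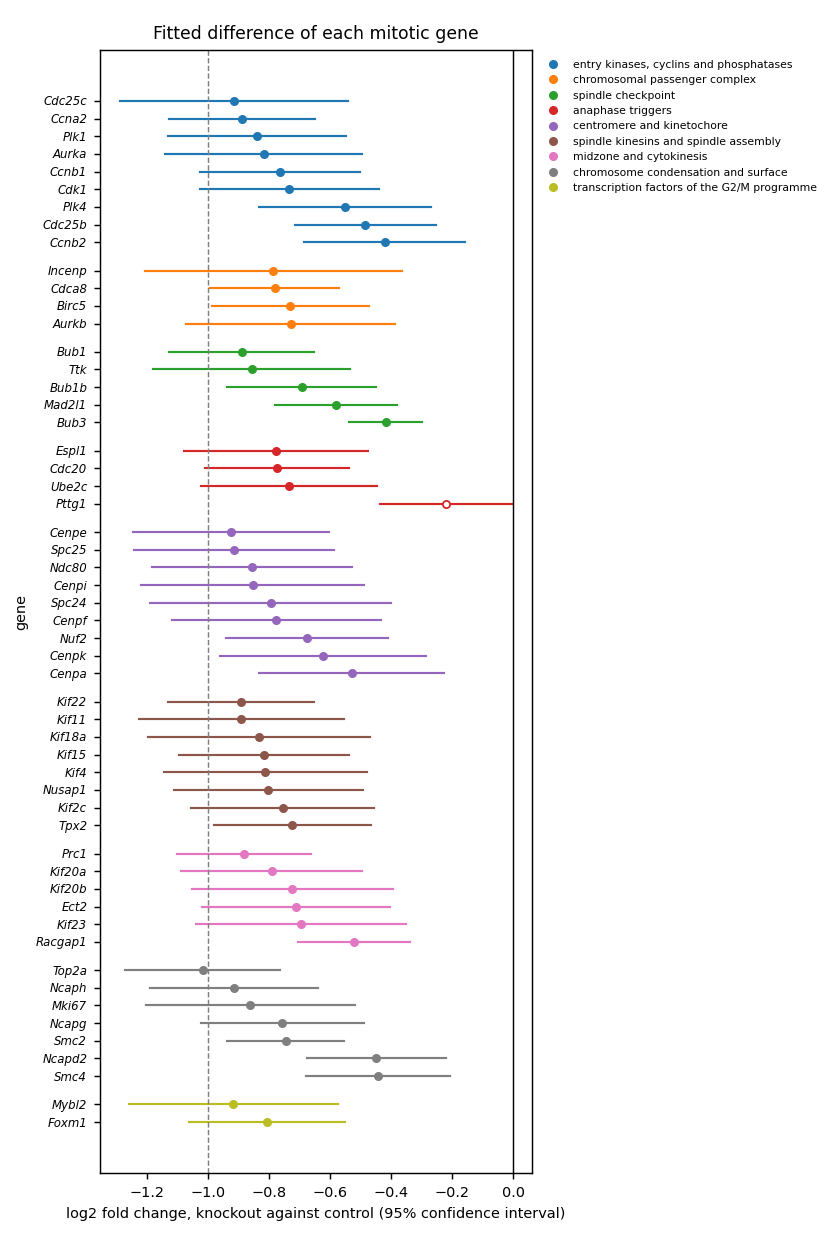
Log2 fold change of the Klf13 knockout against control for each of the 54 genes with its 95% confidence interval, coloured by role and ordered within a role; the dashed line marks -1 and an open circle a gene that did not pass an adjusted p of 0.05. All points lie below 0, Pttg1 is the open one, and Top2a is the point furthest to the left.

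The chromosomal passenger complex, which corrects faulty attachments of chromosomes to the spindle and later guides cytokinesis, was lower as a whole, with all 4 subunits called and log2 fold changes between -0.79 and -0.73. The survivin gene Birc5 had normalized counts of 975, 886, 816 and 807 in the controls against 567, 459 and 551 in the knockouts, with a log2 fold change of -0.73 (SE 0.11, adjusted p = 0.00467). The borealin gene Cdca8 had 1379, 1372, 1320.2 and 1264 in the controls against 867, 685 and 778 in the knockouts, with a log2 fold change of -0.78 (SE 0.09, adjusted p = 0.00168). In both, the libraries of a group lay close together. Incenp, the scaffold of the complex, differed more among controls, with 1541, 2052, 2216 and 1351 against 942, 1122 and 1046 in the knockouts. Control replicates 1 and 4 were the low ones, and its log2 fold change of -0.79 had the largest SE of all 54 genes (0.18, adjusted p = 0.0200). Without knockout replicate 1, 2 or 3, the adjusted p of Incenp rose to between 0.0553 and 0.0723. The kinase of the complex, Aurkb, fell by 0.73. With the fibroblast and mural cell covariate, Aurkb (log2 fold change -0.71, adjusted p = 0.123) and Incenp (-0.85, adjusted p = 0.133) lost their calls in edgeR's test.

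All 5 genes of the spindle checkpoint, which delays anaphase until every chromosome is attached, were called lower, with a median of -0.69. Bub1b, which encodes the checkpoint protein BubR1, was at 1407, 1468, 1468 and 1137 normalized counts in the controls against 865, 798 and 880.4 in the knockouts, a log2 fold change of -0.69 (SE 0.10, adjusted p = 0.00468). Mad2l1, which binds and blocks Cdc20, was at 1403, 1333, 1345 and 1305 in the controls against 960.5, 788 and 957 in the knockouts, a log2 fold change of -0.58 (SE 0.09, adjusted p = 0.00447). Bub3, the partner of Bub1 and Bub1b, was at 5069, 4867, 4862 and 5098 in the controls against 3905, 3661 and 3613 in the knockouts, a log2 fold change of -0.42 (SE 0.05, adjusted p = 0.00214). Bub3 had a smaller change than most of the 54 genes, with the smallest error of all of them. The kinases Bub1 (-0.89) and Ttk (-0.86) fell further.

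The genes that trigger anaphase split in size. Cdc20, the activator of the anaphase-promoting complex, had normalized counts of 2426, 2564, 2277 and 2062 in the controls against 1535, 1287 and 1275 in the knockouts, and fell by 0.77 (SE 0.10, adjusted p = 0.00271). Ube2c, the ubiquitin-conjugating enzyme of that complex, had 2226, 2052, 1908 and 1738 in the controls against 1350.5, 1006 and 1225 in the knockouts, and fell by 0.73 (SE 0.12, adjusted p = 0.00687). Espl1, the separase that cuts the cohesin ring between chromatids, had 865, 889.9, 735 and 683 in the controls against 487, 404 and 497 in the knockouts, and fell by 0.78 (SE 0.13, adjusted p = 0.00656). In all 3, the knockout libraries were well below every control library. Pttg1, the securin that holds separase inactive, had 386, 392, 441 and 417 in the controls against 359, 333 and 363 in the knockouts. The groups did not overlap, but knockout replicates 1 and 3 came close to control replicates 1 and 2, and the log2 fold change of -0.22 did not pass (SE 0.09, 95% confidence interval -0.44 to -0.00, adjusted p = 0.135). The interval of Pttg1 lay above the values of Espl1, Cdc20 and Ube2c, although the difference between these genes was not itself tested.

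All 9 genes of the centromere and kinetochore, the structure that ties a chromosome to spindle microtubules, were lower, with a median of -0.79. The histone variant gene Cenpa, which marks the centromere, had normalized counts of 1379, 1257, 1244 and 1167 in the controls against 1013, 700.4 and 914 in the knockouts, a log2 fold change of -0.53 (SE 0.13, adjusted p = 0.0251). Cenpe, a kinetochore motor that moves chromosomes to the spindle equator, had 1952, 1919.6, 1699 and 1524 in the controls against 1024, 759 and 1024 in the knockouts, a log2 fold change of -0.92 (SE 0.14, adjusted p = 0.00456). Cenpf, a kinetochore protein that builds up in G2, had 3885, 3547, 3083 and 3027 in the controls against 2233, 1557 and 2146 in the knockouts, a log2 fold change of -0.78 (SE 0.15, adjusted p = 0.0102). In each of these genes, knockout replicate 2 was the lowest library, and in Cenpa knockout replicate 1 came near the controls. The call on Cenpa was lost without control replicate 1, knockout replicate 3 or control replicates 3 and 4 (adjusted p between 0.0571 and 0.0609). It was also lost with the fibroblast and mural cell covariate (adjusted p = 0.213). The subunits of the NDC80 complex, which grips the microtubule, had log2 fold changes of -0.86 (Ndc80), -0.68 (Nuf2), -0.79 (Spc24) and -0.91 (Spc25). The inner kinetochore genes Cenpi and Cenpk had -0.85 and -0.62. Cenpk had the lowest counts of the 54 genes, and its call was lost when the replicate number was added as a block (log2 fold change -0.63, adjusted p = 0.0630). It was also lost without knockout replicate 2 or 3, without control replicates 3 and 4, and with the fibroblast and mural cell covariate (adjusted p between 0.0605 and 0.195).

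The 8 genes of spindle kinesins and spindle assembly were all called lower, with log2 fold changes from -0.89 to -0.72. Kif11, the motor that pushes the spindle poles apart, had normalized counts of 2773, 2913, 2576 and 2389.7 in the controls against 1650.2, 1108 and 1557 in the knockouts, a log2 fold change of -0.89 (SE 0.14, adjusted p = 0.00599). Tpx2, which starts microtubules near chromosomes and activates the Aurka kinase, had 3332, 3530.5, 3035 and 2781 in the controls against 2174, 1709 and 1882 in the knockouts, a log2 fold change of -0.72 (SE 0.11, adjusted p = 0.00485). Nusap1, a microtubule-bundling protein, had 1877, 1969.9, 1709 and 1687 in the controls against 1220.5, 832 and 1069 in the knockouts, a log2 fold change of -0.80 (SE 0.13, adjusted p = 0.00642). Control replicate 2 was the highest and knockout replicate 2 the lowest library for all 3 of them. The kinesins Kif15 (-0.82), Kif18a (-0.83), Kif22 (-0.89), Kif2c (-0.75) and Kif4 (-0.81) were close to these values. With the fibroblast and mural cell covariate, Kif11, Nusap1, Kif18a, Kif2c and Kif4 lost their calls in edgeR's test (adjusted p between 0.0590 and 0.0974). Their log2 fold changes in that fit were from -0.91 to -0.75.

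Genes of the spindle midzone and cytokinesis were lower in 6 of 6 cases, with a median of -0.72. Prc1, which crosslinks the microtubules of the midzone, had normalized counts of 2359, 2493, 2216 and 2329.8 in the controls against 1410.1, 1098 and 1323 in the knockouts, a log2 fold change of -0.88 (SE 0.09, adjusted p = 0.00116). Ect2, the exchange factor that activates the GTPase RhoA at the cleavage plane, had 1348, 1392, 1303 and 1321 in the controls against 929.8, 635 and 896 in the knockouts, a log2 fold change of -0.71 (SE 0.13, adjusted p = 0.00938). Racgap1, which recruits Ect2 as part of centralspindlin, had 3357, 3617, 3268 and 2950.4 in the controls against 2423, 2184 and 2292 in the knockouts, a log2 fold change of -0.52 (SE 0.08, adjusted p = 0.00468). Racgap1 thus kept 69.7% of its control mean, compared with 54.4% for Prc1 and 61.2% for Ect2. The kinesins of the midzone, Kif20a (-0.79), Kif20b (-0.72) and Kif23 (-0.70), lay between Prc1 and Racgap1.

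Among the 7 genes of chromosome condensation and the chromosome surface were the deepest and some of the shallowest falls. Top2a, the topoisomerase that untangles replicated DNA, had normalized counts of 8602, 8757, 8196 and 7319.8 in the controls against 4411, 3414 and 4356 in the knockouts. Its log2 fold change of -1.02 (SE 0.11, adjusted p = 0.00120) was the lowest of the 54, and the knockouts had 49.4% of its control level. It did not reach -1 without control replicate 1 or 2 or knockout replicate 2, where it ranged from -0.99 to -0.91. Mki67, the proliferation marker that coats mitotic chromosomes, had 8109, 7451, 6552 and 6259 in the controls against 4264, 3073 and 4373 in the knockouts, a log2 fold change of -0.86 (SE 0.15, adjusted p = 0.00708). For Top2a and Mki67, every knockout library was below every control by a wide gap. Ncapd2, a subunit of condensin, had 4284, 4573, 4027 and 3421 in the controls against 3078, 2908 and 2977 in the knockouts, a log2 fold change of -0.45 (SE 0.10, adjusted p = 0.0166). Control replicate 4 was the low control here and came closest to the knockouts. The call on Ncapd2 was lost without knockout replicate 2 (adjusted p = 0.0648) and with scaling by total counts (adjusted p = 0.0518). The other condensin genes had log2 fold changes of -0.92 (Ncaph), -0.76 (Ncapg), -0.75 (Smc2) and -0.44 (Smc4), so Smc2 and Smc4, which pair with each other in condensin, differed in size, a difference that was not itself tested.

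Both transcription factors of the G2/M programme fell. Foxm1, which activates many mitotic genes, had normalized counts of 1586, 1561, 1511 and 1384 in the controls against 937, 720.4 and 937 in the knockouts, a log2 fold change of -0.81 (SE 0.11, adjusted p = 0.00325). Mybl2, the Myb protein that joins the MuvB complex in cycling cells, had 363, 464, 418 and 323 in the controls against 208, 195 and 220.1 in the knockouts, a log2 fold change of -0.92 (SE 0.15, adjusted p = 0.00582). The groups stood apart for both genes. Mybl2 differed more among its controls, where replicates 1 and 4 were the low ones, as in Incenp.

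Levels of different genes were compared as normalized counts per kilobase of exon. The length was that of all annotated exon bases of a gene (1868 for Cdc20, 9832 for Kif18a), so the order of the genes also depends on the annotation. In the controls the highest level was that of Cdc20 with 1249 ± 115 (SD, n = 4), and it was followed by Top2a with 912 ± 71.5, Ube2c with 762 ± 80.0, Bub3 with 710.0 ± 18.1 and Mki67 with 705 ± 84.1. The levels of Ube2c, Bub3 and Mki67 did not differ beyond their spread, and neither did those of Top2a and Ube2c. In the knockouts Cdc20 was still the highest with 731 ± 78.5 (SD, n = 3), followed by Bub3 with 532 ± 22.4, Ncapd2 with 477 ± 13.6, Ube2c with 459 ± 67.1 and Top2a with 450.5 ± 62.1. The last 3 did not differ beyond their spread, and neither did Bub3 from Ube2c or Top2a. The lowest level in the controls was that of Kif18a with 49.3 ± 4.49. Summed over the 54 genes, the level was 19237, 19492, 18332 and 16782 for control replicates 1 to 4 but 12169, 9716 and 11520 for knockout replicates 1 to 3, which left the knockouts with 60.3% of the mean of the controls. The genes took between 0.179% and 0.227% of all counts in the control libraries and between 0.116% and 0.135% in the knockout libraries.

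The lowest library was mostly the same across the genes, whereas the highest was control replicate 1 for 22 genes, control replicate 2 for 23 and another control for the rest. The median over the 54 genes of the log2 ratio to the control mean was 0.06, 0.07, -0.02 and -0.14 for control replicates 1 to 4 but -0.63, -1.01 and -0.68 for knockout replicates 1 to 3. Knockout replicate 2 was the lowest of all 7 libraries for 49 genes, and control replicate 4 the lowest control for 40. The coefficient of variation had a median of 8.11% among the controls and 14.3% among the knockouts. Without knockout replicate 2 the median log2 fold change was -0.66, and 46 of the 54 genes were called, the lowest number when single libraries were left out. Besides Pttg1, the genes that missed the threshold without some single library were Ccnb2, Cdc25b, Cenpa, Cenpk, Incenp, Kif23, Ncapd2, Smc4 and Spc24. The libraries also fell into classes by the share of counts on Gm42418, Gm23935 and Lars2, genes that collect reads of ribosomal RNA. Control replicates 1 and 4 as well as knockout replicates 1 and 3 had a share of more than 10%, and the remaining libraries a smaller one. The median log2 ratio of knockout to control over the 54 genes was -0.64 among the libraries above 10% and -1.07 among those below it, where the knockout was a single library. With this share as a covariate, 53 genes were called lower and the median was -0.82.

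The other phases of the cell cycle were followed with further lists. Among 77 tested genes of 78 other G2/M genes, 62 were called lower (80.5%, against 12.2% of all tested genes) and 1 higher (1.30%, against 11.6%), with a median log2 fold change of -0.68. With the fibroblast and mural cell markers described below as a covariate, 18 of them were called lower and the median was -0.69. Fewer of all tested genes were called lower in that fit too, as given below. Past a log2 fold change of -1 were the cleavage furrow scaffold Anln with -1.26 (SE 0.15, adjusted p = 0.00167), Sapcd2 with -1.15 (adjusted p = 0.00128) and Mastl, the kinase that restrains the phosphatase opposing Cdk1, with -1.08 (adjusted p = 0.000993). The called higher gene was the kinetochore gene Zwint, with 6681, 6999.7, 6567 and 6049 normalized counts in the controls against 7865, 8481 and 7435 in the knockouts, a log2 fold change of 0.27 (SE 0.07, adjusted p = 0.0303). Zwint moved against the 54 genes, with every knockout library above every control. Hmgb2, a chromatin protein, had a log2 fold change of -0.53 (adjusted p = 0.0109), and the lamin gene Lmnb1 one of -0.03 (adjusted p = 0.900). Among 60 genes of DNA replication and S phase, 39 were called lower (65.0%, against 12.2% of all tested genes) and 0 higher (against 11.6%), with a median of -0.45. The number called lower was 8 with the same covariate (median -0.43) and 25 without knockout replicate 1. In both of these fits fewer of all tested genes were called lower as well. The replication clamp Pcna had -0.44 (adjusted p = 0.00757), the ribonucleotide reductase subunit Rrm1 -0.57 (adjusted p = 0.00457), the checkpoint mediator Clspn -1.05 (adjusted p = 0.00248) and the maintenance methyltransferase Dnmt1 -0.15 (adjusted p = 0.219). The medians of the lists were not compared by a test.

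**Figure D4:**
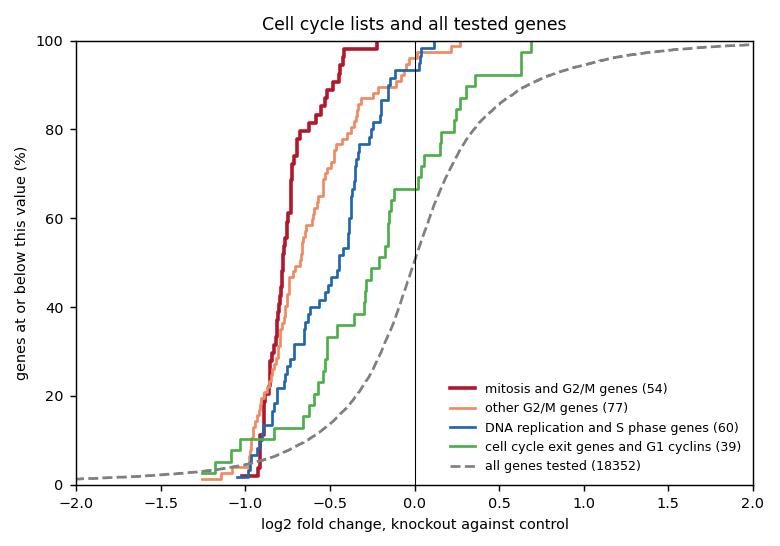
Cumulative share of genes (vertical axis, %) at or below each log2 fold change of the Klf13 knockout against control (horizontal axis, drawn from -2 to 2) for the 54 mitotic genes, 3 further cell cycle lists and all 18352 tested genes. The curve of the 54 genes rises steeply around its median of -0.78, the other G2/M genes follow with a longer tail up to Zwint, and over most of the axis the S phase and G1 lists lie between these and all genes.

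Of 39 genes of cell cycle exit and G1, 11 were called lower (28.2%, against 12.2% of all tested genes) and 5 higher (12.8%, against 11.6%), with a median of -0.21. The sign was negative for 26 of them. With the fibroblast and mural cell markers as a covariate, edgeR's test called 0 of them lower, while 10 were lower at an unadjusted p of 0.05. Past a log2 fold change of -1 were the inhibitors Cdkn2a with -1.26 (adjusted p = 0.0265) and Cdkn1a with -1.18 (adjusted p = 0.00422), the cyclin Ccnd1 with -1.09 (adjusted p = 0.00850) and the repressor E2f7 with -1.03 (adjusted p = 0.00573). Cdkn1a, which blocks cyclin-dependent kinases, had 8497, 8999, 10523 and 13855 normalized counts in the controls against 4817, 4281 and 4765 in the knockouts. Ccnd1 and Cdkn1a, which act in opposite ways on the cell cycle, were thus both lower in every knockout library than in any control. The genes called higher were Btg1 (0.69), Myc (0.63), Mycn (0.63), Cdkn1b (0.36) and Cdk4 (0.27, adjusted p = 0.0138). Ccng1 had -0.66 (adjusted p = 0.00390) and Ccnd2 0.24 (adjusted p = 0.159).

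Markers of several cell types also differed between the groups. The summed level of 10 neuron markers, in normalized counts per kilobase, ranged from 3679 to 4867 in the controls and from 8013 to 10843 in the knockouts, and all 10 were called higher. Of 8 astrocyte markers 7 were higher, with sums from 47189 to 54137 in the controls and 57078 to 65063 in the knockouts. The remaining one, S100b, went the other way with a log2 fold change of -0.54 (adjusted p = 0.0923 in edgeR's test). Every knockout library was below every control for it. The sum of 7 mature oligodendrocyte markers ranged from 215348 to 234806 in the controls and from 65308 to 76682 in the knockouts, and that of 6 OPC markers from 18713 to 20790.0 and from 21983 to 23476. Gpr17 alone gave 9690 to 11157 of the OPC sum in the controls and 12254 to 13883 in the knockouts (adjusted p = 0.0532 in edgeR's test). Only 2 of the 6 OPC markers had groups without overlap, and C1ql1 had a negative log2 fold change (-0.25). None of these sums overlapped between the groups, and the part of these cell types in the difference of the mitotic genes was not tested. No marker gene was at 0 in every library. Among 11 microglia markers none was called, with a sum of 61670 in control replicate 3 and between 13818 and 28244 in the other libraries, and among 4 tested endothelial markers 1 was lower. For 10 markers of fibroblasts and mural cells, the sum was 13385 in control replicate 3, 10762 in control replicate 4 and between 2665 and 5123 in the other libraries, with 1 gene called lower. It was lowest in knockout replicate 2, and the knockouts had 47.3% of the control mean. Of these markers 9 had a negative log2 fold change, with a median of -1.75 over all 10. Col1a1, Col1a2, Col3a1, Lum and Fn1 had values from -2.64 to -1.66 and narrowly missed the threshold in edgeR's test (adjusted p between 0.0546 and 0.0591). Without control replicates 3 and 4, the median log2 fold change of the 54 genes was -0.85 and 49 were called. With the mean log2 level of these 10 markers as a covariate, all 54 log2 fold changes remained below 0 with a median of -0.79, 52 had an unadjusted p of at most 0.05 and 23 passed the adjusted one, while the number of lower genes among all tested genes went from 2246 to 675. Of the genes given with values in every library, Cdk1, Incenp, Mad2l1, Ube2c, Cenpa, Cenpf, Kif11, Nusap1, Ect2 and Mki67 lost their call in this fit, with adjusted p between 0.0581 (Ube2c) and 0.213 (Cenpa).

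**Figure D5:**
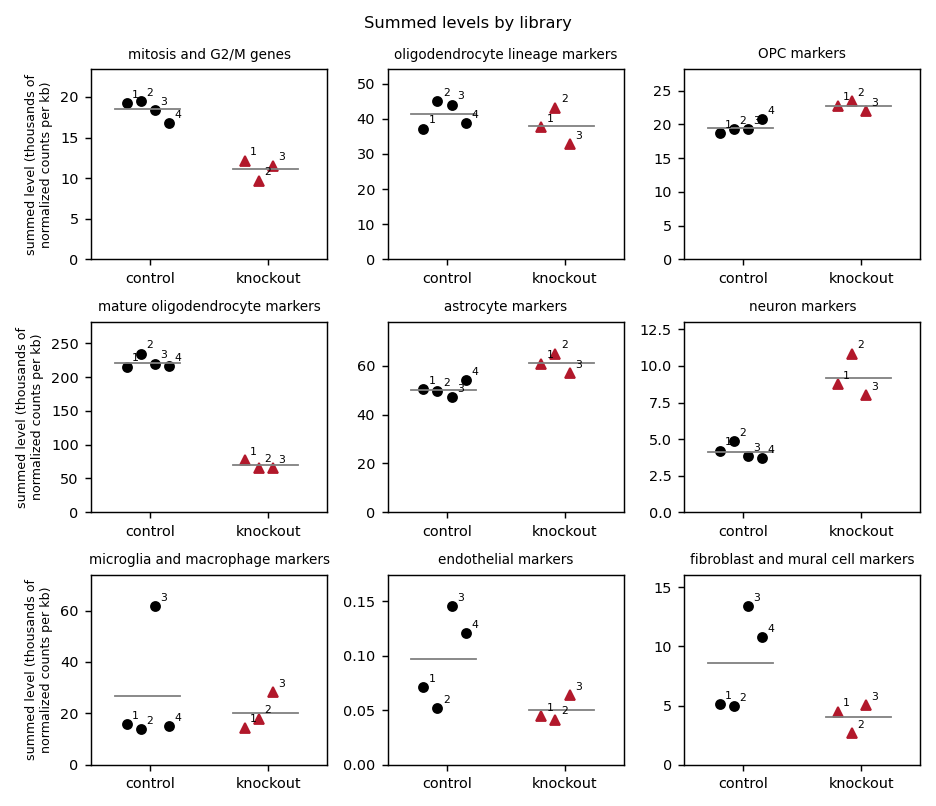
Summed level (normalized counts per kilobase of exon, divided by 1000 on the axis) of the 54 mitotic genes and of 8 lists of cell type markers in each control library (circles) and knockout library (triangles), with the replicate number beside each point and a grey line at the group mean. The mitotic genes and mature oligodendrocyte markers are lower and the neuron and astrocyte markers higher in all 3 knockout libraries, while control replicates 3 and 4 stand apart in the fibroblast markers and control replicate 3 in the microglia markers.

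Counts of 13 of the 54 genes could include reads of a gene on the opposite strand, as their exons share bases with it and the strand used in counting is not given in the sources used here. The shared part was over 10% of the exon bases for 6 genes, namely Kif20a (33.2%, with Cdc23), Ube2c (22.8%, with Tnnc2), Kif4 (15.1%, with Pdzd11), Ncapg (13.4%, with Lcorl), Ccna2 (12.5%, with Exosc9) and Prc1 (11.1%, with Rccd1). Their log2 fold changes lay between -0.89 and -0.73, inside the range of the genes without such overlap.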

How the data were processed

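Whole-number gene counts of the 7 libraries were used as deposited. According to the submitters' processing notes and the study's methods, the authors had trimmed paired reads with Trimmomatic 0.36, aligned them to GRCm38 with STAR 2.5.2b and made these counts per gene from unique exon hits with featureCounts of Subread 1.5.2, and had tested them with DESeq2. Which annotation release was used, and whether reads were counted by strand, is not given in the sources used here. Identifiers were matched to symbols for 48970 of 49315 genes, all 54 mitotic genes included, and 47 of the 54 had the same start and end in GENCODE M21.

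Genes with low counts were removed with filterByExpr, which left 18352, and the 4 control and 3 knockout libraries were compared with edgeR 4.0.16 (TMM factors, robust quasi-likelihood test with group as the only term, two-sided) in R 4.3.3. P-values were adjusted over all tested genes by Benjamini-Hochberg. Genes were called at an adjusted p of 0.05, with or without an absolute log2 fold change of 1. Normalized counts were scaled to the mean library size, and confidence intervals were set at 95%. P-values measure the spread between these cultures. The 24507471 to 59596479 counts per library put at least 71 counts on each mitotic gene. The code was tested on simulated data.

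The genes, lists and tests were chosen with earlier results of these data known. Values in every library were given for the 3 genes of each role with the highest mean, for all genes of a role with fewer than 4, for the lowest and the highest log2 fold change, for genes past a log2 fold change of 1 and for genes that did not pass. Of the other cell cycle lists, the 3 genes with the highest mean and those past a log2 fold change of 1 were named; further genes of these lists were named after their values were seen. Promoter windows came from RefSeq tables of GRCm38.p6, and 46 of 50 started at an annotated transcript start.

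Replicate numbers are shared between the groups, and the labels do not say what they stand for. Deviations of same-numbered libraries from their group means correlated at 0.11, 0.46 and 0.17, and those of other pairs at -0.53 to 0.20, so a fit with the replicate number as a block was made. Control replicate 4 has no partner and adds nothing to the group difference in it. Other alternatives were DESeq2 1.42.0, limma 3.58.1 voom, other scalings and filters, 2 covariates and leaving out libraries.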

Additional observations from a re-analysis of the deposited data

How the results depend on the processing

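The median log2 fold change of the 54 mitotic genes lay between -0.85 and -0.66 over 19 alternatives, no gene reversed its direction in any of them, and 21 of the 54 passed an adjusted p of 0.05 in every setting. With the fibroblast and mural cell markers as a covariate, the number of lower mitotic genes went from 53 to 23, and lower and higher genes among all tested genes went from 2246 and 2122 to 675 and 222, a fit with 1 residual degree of freedom fewer; the cause was not tested. Leaving out single libraries left between 46 and 53 mitotic genes lower, and between 1254 and 2032 lower and 850 and 1843 higher genes in all. Without control replicates 3 and 4, a setting chosen after seeing the data, 1489 genes were lower and 1177 higher, and 49 mitotic genes were lower. The number of mitotic genes past a log2 fold change of -1, which was 1 (Top2a), was 0 with upper quartile scaling or total counts, 2 with the share of ribosomal RNA genes as a covariate, 3 with the replicate block, 3 with the fibroblast covariate, 3 without control replicates 3 and 4, and 0 to 3 when single libraries were left out. Beside Top2a, these were Cdc25c, Cenpe, Mybl2, Ncaph, Spc24 or Spc25. With the replicate block, 52 mitotic genes were lower, and Cenpk lost its call while no other mitotic gene changed its call. Upper quartile scaling lost the call on Ccnb2 and total counts that on Ncapd2. For the 27 genes given with values in every library, 495 of 513 values under the alternatives stayed on the same side of the threshold and 18 missed it. The numbers of lower genes ranged from 18 to 66 for the other G2/M genes, from 8 to 44 for S phase genes and from 0 to 15 for the exit and G1 list, each lowest with the fibroblast covariate and highest with DESeq2. Every mitotic gene had 71 or more counts in every library.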
